A study of Brassica napus with 9 samples.

Results

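The genes described here are the most abundant transcripts of mock-treated Brassica napus guard cells whose level was not moved far by abscisic acid (ABA). All genes were ranked by their mean level over the 3 mock-treated samples, the first 200 were taken, and those were kept whose mean log2 ratio of 60 min of ABA to mock within a replicate lay between -1 and 1. This left 180 genes, of 52881 with enough counts to be tested and 101040 in the table of counts. The other 20 genes of the first 200 all had a ratio above 1, and none lay below -1. The members were thus chosen by their mock levels and 60-min ratios, which are given below as a description only.

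The samples were protoplasts (cells whose wall was digested by enzymes) of guard cells from leaves of the line DH12075. One group of 3 was mock-treated with ethanol (Control), one was exposed to ABA for 15 min and one for 60 min. Each sample pooled several protoplast isolations, and each of the 3 replicate numbers joined 1 sample of every group. Differences between the groups include any change with time in light at room temperature, because no mock was matched to each exposure.

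Guard cells stand in pairs around the stomatal pores of the leaf, and ABA is the hormone that makes them close the pore when water is short. In a leaf cell a small number of genes usually supplies a large part of the messenger RNA, and such genes often serve basic functions of the cell such as photosynthesis, protein synthesis and transport. Because read counts are shares of a library, a shift in the most abundant transcripts also moves the apparent level of all the others. The oilseed genome joins an A and a C subgenome, so that many genes have a near-identical partner in the other subgenome, and the chromosome is part of each gene identifier.

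The count table gives identifiers of the Darmor annotation without gene names. None of the 180 members was among the 140 tested genes that carry a name in the study, and 2 matched a RefSeq symbol that is the identifier itself. The roles of the members are therefore not given here, and the genes are described by their identifiers, chromosomes and values. Gene lengths were not used, so that the order of the members is an order of read counts relative to library size (CPM) and not of molecules.

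Total counts ranged from 88051359 to 123968001 per sample. Each member had between 12591 and 1563390 counts in every sample, so that counting error was small beside the spread between replicates. The label of the samples was checked on 7 genes that mark guard cells. The anion channel gene ALMT12 and the kinase gene MPK12 were found at ranks between 820 and 5316 of the mock-treated samples. Both genes of the kinase OST1 were low, at 2.42 and 3.58 CPM (ranks 28260 and 24768), near the median of 2.98 CPM of all genes tested. No marker was at 0. The single mesophyll marker measured, the chlorophyll-binding protein gene CAB1, had 19.8 to 43.0 CPM in the mock-treated samples. No marker was among the members.

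Mock levels of the members ran from 7440.1 CPM for the first gene, BnaA10g17650D on chromosome A10, to 459.6 CPM for BnaA03g09300D at rank 200, a 16.2-fold span. The median of the members was 775 CPM, and 63 of them were over 1000 CPM. All genes tested had a median of 2.98 CPM. The rank limit fell where levels were close together, since the gene at rank 200 had 459.58 CPM and the next one 459.42 CPM.

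**Figure D1:**
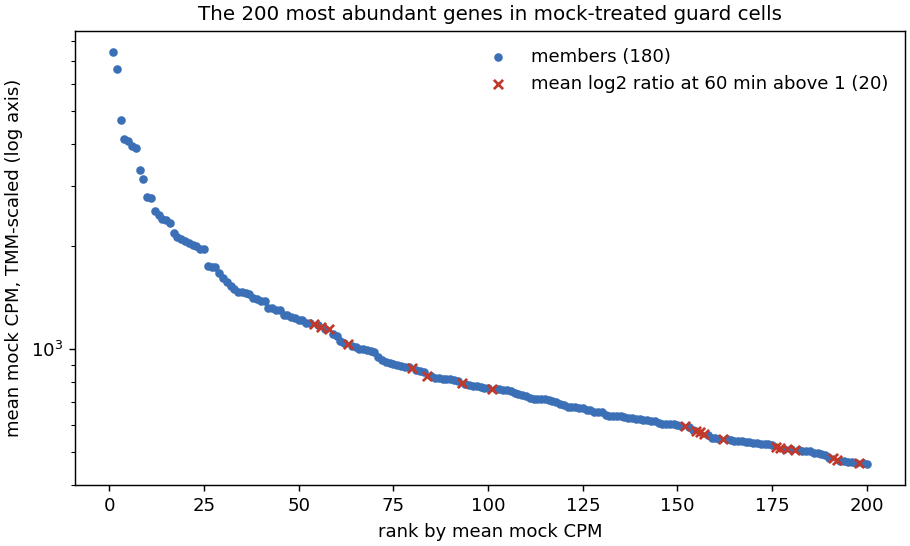
Mean CPM over the 3 mock-treated samples (log axis) against the rank of each of the first 200 genes. Blue points are the 180 members, which span 7440.1 to 459.6 CPM, and red crosses are the 20 genes with a 60-min ratio above 1, the first of which stands at rank 54.

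The first 3 members stood above the rest by their mean mock level, though not in every mock replicate. BnaA10g17650D had 8347, 8604 and 5369 CPM in mock replicates 1, 2 and 3, 8468, 9059.8 and 5665 at 15 min and 10045, 9469 and 6706 at 60 min. BnaA03g32320D had 4676, 10890.1 and 4283 CPM after mock treatment, 5306, 10824 and 5439 at 15 min and 9395, 15662 and 7269 at 60 min. BnaC03g37680D had 3000.3, 7721 and 3323 CPM after mock treatment, 3347, 8095 and 3976 at 15 min and 6821, 12276 and 5736 at 60 min. In all 3 genes the groups overlapped, and replicate 2 was the highest sample of each group except for BnaA10g17650D at 60 min. BnaA10g17650D took the first rank in 5 of the 9 samples and BnaA03g32320D in the other 4, and the leading gene held from 0.645% to 1.27% of a library. In replicate 1 BnaA10g17650D went from 8347 CPM after mock treatment to 10045 at 60 min, while its library share went from 0.921% to 0.901%.

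The next members differed in how far their mock replicates lay apart. BnaC06g02740D, on C06, had 5436, 3849 and 3085 CPM after mock treatment and was highest in replicate 1. BnaC05g11890D, on C05, had 5091, 5458 and 1712 CPM and was far lower in replicate 3 than in the other two. BnaA06g10230D, on A06, had 4591, 5947 and 1141 CPM, with replicate 3 lower still. By contrast BnaA03g45080D, on A03, had 3693, 4605 and 3483 CPM, and its replicates lay close together. The mean mock levels (SD, n = 3) of these genes were 4123 ± 1199, 4087 ± 2065, 3893 ± 2478 and 3927 ± 597 CPM. Over all members the SD of the mock samples was a median of 33.9% of the mean, and in 49 it was over 50%.

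**Figure D2:**
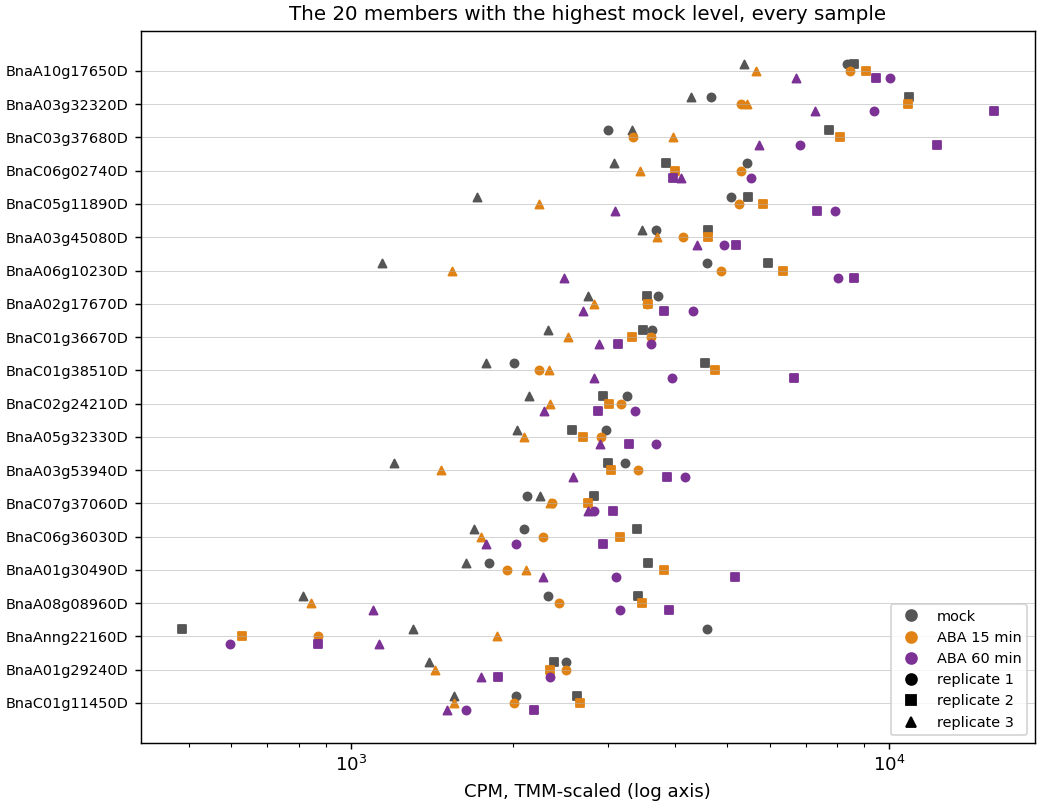
CPM (log axis) in every sample for the 20 members with the highest mock level, coloured by treatment and with the symbol giving the replicate number. The 3 symbols of a replicate number lie near each other in most rows, and BnaAnng22160D stands apart with mock replicate 1 at 4595 CPM.

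The rank of a member depended on the sample. Between 138 and 155 of the 180 members were in the first 200 of any single sample, 111 were in the first 200 of all 3 mock-treated samples and 94 in the first 200 of all 9. The farthest a member fell was rank 1155, held by BnaA05g09340D in replicate 3 at 60 min. Membership itself shifted with the samples, and 168, 154 and 170 of the 180 genes were chosen again when replicate 1, 2 or 3 was left out.

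The members together held 22.3%, 24.9% and 18.4% of all counts in mock replicates 1, 2 and 3. They held 22.1%, 24.6% and 19.0% at 15 min, and 22.9%, 25.2% and 19.2% at 60 min. The group means were 21.9% ± 3.24, 21.9% ± 2.80 and 22.5% ± 3.02 (SD, n = 3). The order of the replicate numbers was the same in every group, with replicate 2 highest and replicate 3 lowest. The difference from mock within a replicate number was -0.18, -0.28 and 0.57 percentage points at 15 min, and 0.61, 0.34 and 0.80 points at 60 min. These differences were smaller than the distance between replicate numbers, whose means were 22.4%, 24.9% and 18.9%.

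The first 20 members alone held 5.44% to 8.62% of a library. The 183 genes of the next 200 ranks that met the same ratio limits held 6.91%, 6.85% and 6.83% on average in the 3 groups. The 20 genes above the ratio limit, in contrast, held 1.26% to 1.89% of the mock-treated libraries and 2.73% to 3.11% at 60 min, which the rule itself fixes. Because the rule left these genes out, it also fixes in part how level the share of the members is. All first 200 genes together held 23.4%, 23.8% and 25.3% on average in the 3 groups. Within a replicate number they rose by 1.56 to 2.27 points from mock to 60 min. Under TMM scaling the members summed to 205851, 211233 and 257125 CPM on average.

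**Figure D3:**
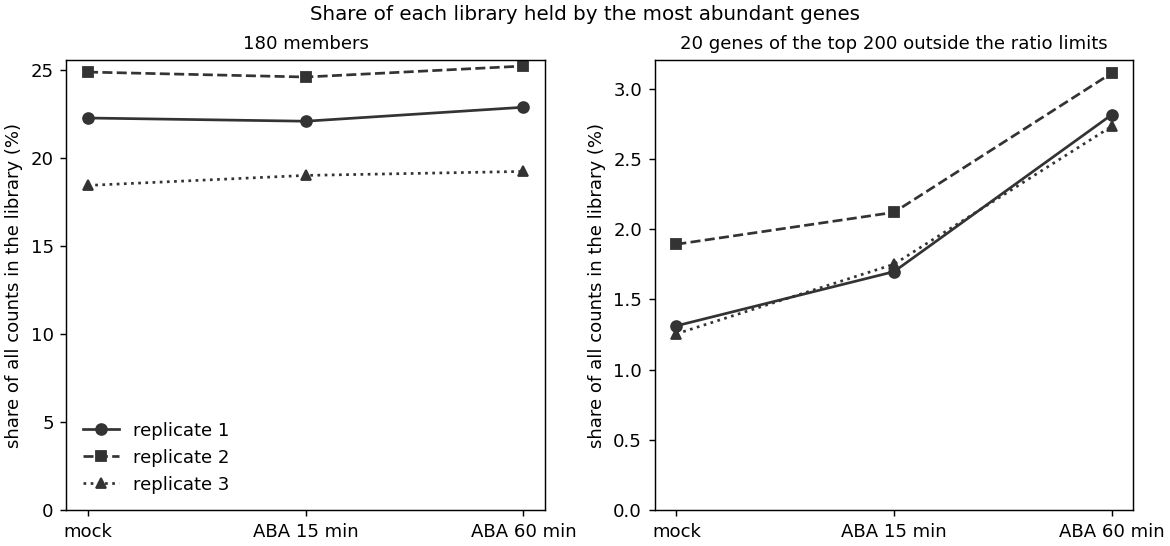
Share of all counts in each library (percent, axes from 0) held by the 180 members (left) and by the 20 genes of the first 200 with a ratio above 1 (right), for each treatment, with a line for each replicate number. The lines of the members are nearly level (22.1% to 22.9% in replicate 1, 24.6% to 25.2% in replicate 2 and 18.4% to 19.2% in replicate 3), and the replicates stay apart. The ratio limit in part fixes how level these lines are.

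Replicate 3, where the members held the smallest share, also differed in the markers. The 7 guard cell markers summed to 273, 227 and 838 CPM in mock replicates 1, 2 and 3, to 315, 243 and 1079 CPM at 15 min, and to 1120.1, 639 and 2417 CPM at 60 min. The mean level of all 7 was itself higher at 60 min than in mock. The ALMT12 genes BnaA03g43490D and BnaC07g34970D, for example, had log2 fold changes of 2.18 and 2.03. The sums are thus compared between replicates of a group and are not a measure of guard cell content across groups. The sums rest on the ALMT12 and MPK12 genes. The OST1 genes BnaA01g03110D and BnaC01g04370D had 2.23, 2.42 and 2.62 CPM and 3.06, 3.78 and 3.91 CPM in mock replicates 1, 2 and 3. All 7 guard cell markers were on average highest in replicate 3. CAB1 was lowest there in each group, with 42.7, 43.0 and 19.8 CPM after mock treatment. Whether these differences have a part in the share of the members was not tested. In bulk samples fewer cells of a type and less RNA per cell cannot be told apart.

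The question of the 15-min samples is whether a short exposure moved the members, which are not all of the most abundant transcripts. In edgeR's quasi-likelihood test, with Benjamini-Hochberg adjustment over all genes and a threshold of 0.05, none of the 180 members was called. Over all genes tested 0.431% were called, 0.395% higher and 0.0359% lower, so that a count of 0 is close to this share. The share was 0.546% (1 of 183) in the next 200 ranks within the ratio limits. It was 2.08% (110) in the 5288 most highly expressed genes. At an unadjusted p under 0.05 there were 13 members, 7 higher and 6 lower, beside 2928 of the 52881 genes tested. DESeq2 called 0 members and 0.927% of all genes. The smallest adjusted p of a member in edgeR's test was 0.45. The median log2 fold change of the members was 0.04, beside 0.00 over all genes, and the median standard error was 0.09. The members thus showed no detectable change at 15 min with this spread and number of samples, which does not show that they were unchanged. The mock samples enter this comparison and also chose the members.

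The 5 highest fold changes at 15 min ranged from 0.23 for BnaA04g23920D to 0.33 for BnaA02g33910D on the log2 scale. BnaA02g33910D, on A02, had 813, 1296 and 580.0 CPM after mock treatment and 1082, 1420.1 and 805 at 15 min. Each replicate was higher after 15 min, although the groups overlapped. BnaC02g42720D, on C02, had 741, 1153 and 540.0 CPM after mock treatment and 940.5, 1285 and 682 at 15 min, a log2 fold change of 0.28 (SE 0.08). These 2 genes did not pass edgeR's quasi-likelihood test in the model of all samples (adjusted p = 0.45 and 0.49), and passed it only when the 15-min and mock samples were fitted alone (adjusted p = 0.032 and 0.039). Both were called higher in the 60-min samples when these were set against the 15-min samples. BnaC06g35220D and BnaA07g31420D were the other two of the 5, at 0.32 and 0.25.

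The lowest fold change at 15 min belonged to BnaAnng22160D, an unplaced gene of the A subgenome at rank 18. Its levels were 4595, 485 and 1306 CPM after mock treatment, 869, 628 and 1868 at 15 min and 598, 868 and 1129 at 60 min. Mock replicate 1 was the highest of the 9 samples by far, and the groups overlapped. The log2 fold change was -0.71 (SE 0.62), which did not pass edgeR's test (adjusted p = 1.00), and it became 0.45 without replicate 1, where the gene fell to rank 81. BnaC05g38940D, on C05, was high in the same sample, with 1525, 824 and 439.8 CPM after mock treatment and 595, 828 and 617 at 15 min. This gene went from -0.36 to 0.25 on the log2 scale without replicate 1, and its rank moved from 72 to 141. The other members with low values were BnaC06g43940D, BnaA07g30920D and BnaA05g35560D, at -0.38, -0.36 and -0.32, none of which passed the test.

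The 60-min samples were compared with the 15-min samples, a contrast the rule did not use directly, although the 60-min samples entered the limit on the ratio. In edgeR's quasi-likelihood test 95 of 180 members were called, 88 higher and 7 lower at 60 min. Over all genes tested 23.7% were called, 14.2% higher and 9.45% lower. The share of members called was 52.8%, close to the 53.0% (97 of 183) of the genes of the next 200 ranks within the ratio limits and the 48.2% of the 5288 most highly expressed genes. The median log2 fold change was 0.27 for the members and -0.01 for all genes. The later exposure was higher in all 3 replicates of 115 members and lower in all 3 of 16.

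The direction of these changes depended on the scaling of the libraries. TMM, which sets libraries to a common level of most genes, scaled the 60-min libraries by 0.812 to 0.938 and all others by 0.931 or more. When total count alone was used, 91 members were called, 41 higher and 50 lower, beside 43.1% of all genes tested, of which 16.4% were higher. Under that scaling the median of the members was 0.01 and that of all genes -0.27. The 41 higher and 7 of the lower genes were called in the same direction under both scalings. The other 47 genes called higher under TMM did not pass with total count. The scaling moved the members by a median of 0.26 on the log2 scale.

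**Figure D4:**
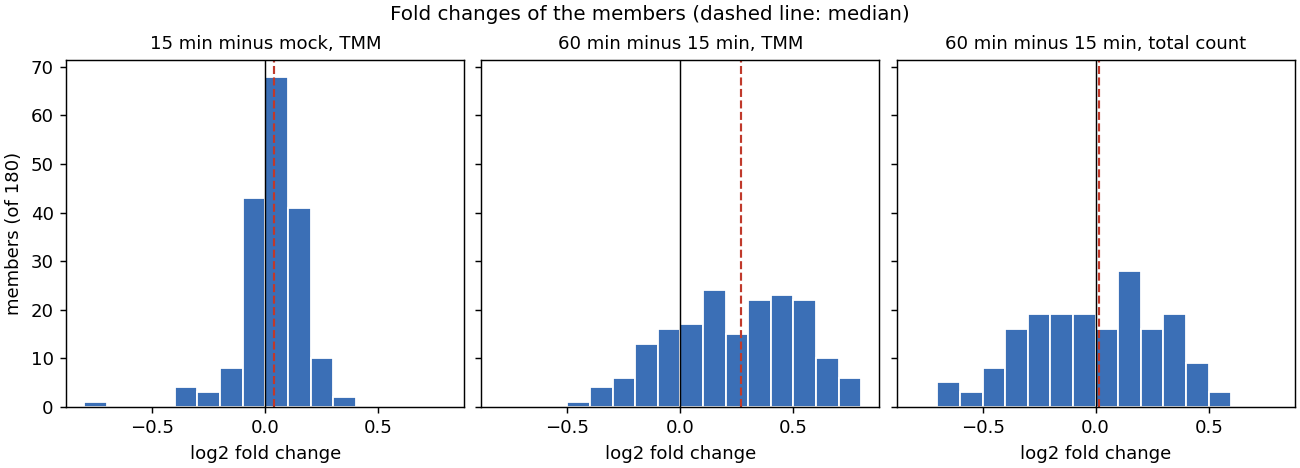
Number of members by log2 fold change, for 15 min against mock (left) and 60 min against 15 min (middle) under TMM scaling, and for 60 min against 15 min with total count alone (right). The dashed medians stand at 0.04, 0.27 and 0.01, so that the last comparison is moved as a whole by the scaling.

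The replicates also bore on this count. Leaving out replicate 1 brought it to 12, leaving out replicate 2 to 62 and leaving out replicate 3 to 103. Of all genes tested 6.88%, 16.4% and 20.5% were called in these fits. With no replicate block it was 0, beside 0.46% of all genes tested, and 11 members had an unadjusted p under 0.05 in edgeR's test.

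The members at the ends of this contrast that follow were picked once their values were known. BnaA06g04380D, on A06 at rank 172, had 417, 602 and 561 CPM after mock treatment, 442, 615 and 630.2 at 15 min and 873, 939.6 and 1096 at 60 min. All samples at 60 min were above all others. Its log2 fold change was 0.80 (SE 0.09, adjusted p = 2.7e-04 in edgeR's quasi-likelihood test), and 0.55 with total count. BnaC07g26590D, on C07, had the smallest adjusted p. It had 291, 1001 and 513 CPM at 15 min and 482, 1828 and 840.5 at 60 min, higher in each of 3 replicates though the groups overlapped. Its log2 fold change was 0.77 (SE 0.08, adjusted p = 1.2e-04 in edgeR's quasi-likelihood test), and 0.52 with total count.

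BnaA05g35970D, on A05, was the lowest of the called members. It had 666, 702 and 589 CPM after mock treatment, 661, 746 and 594 at 15 min and 476, 585 and 428 at 60 min, and every 60-min sample lay below every other sample. The log2 fold change was -0.43 (SE 0.07, adjusted p = 0.0025 in edgeR's test), and -0.69 with total count.

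Among the first 20 members, edgeR's test of 60 against 15 min called 9 higher and none lower. In the same contrast 52.8% of all members, 48.2% of the 5288 most highly expressed genes and 23.7% of all genes tested were called. The called genes were BnaA03g32320D, BnaC03g37680D, BnaC05g11890D, BnaA06g10230D, BnaC01g38510D, BnaA05g32330D, BnaA03g53940D, BnaA01g30490D and BnaA08g08960D, with log2 fold changes from 0.31 to 0.72. With total count alone only BnaA03g32320D, BnaC03g37680D, BnaA06g10230D and BnaC01g38510D of these 9 passed. The gene at the first rank, BnaA10g17650D, had a log2 fold change of 0.19 (SE 0.09), which did not pass, and its value with total count was -0.07. BnaC06g02740D, BnaA02g17670D, BnaC01g36670D and BnaC02g24210D, at ranks 4 to 11, lay between -0.01 and 0.10 and were not called under TMM. The lowest of the 20 was BnaC01g11450D at -0.21, which was not called under TMM either. With total count alone 5 of the 20 were called lower, namely BnaC01g36670D, BnaC02g24210D, BnaC06g36030D, BnaA01g29240D and BnaC01g11450D. Under that scaling 43.1% of all genes tested were called, of which 16.4% were higher.

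The comparison of 60 min with mock chose the members, so that its count is only a description. In edgeR's test 108 members were called, 96 higher and 12 lower, where 25.7% of all genes tested were called, 15.2% higher and 10.6% lower. With total count alone 55 were higher and 52 lower, beside 51.8% of all genes called, of which 15.2% were higher. Just inside the upper limit stood BnaC07g46480D and BnaC06g35220D, each with a mean log2 ratio of 0.98, and BnaCnng24580D with 0.92. Just outside it were BnaC04g54510D and BnaC09g47250D, each with 1.01, and BnaUnng00130D with 1.02. The members nearest to the lower limit were BnaAnng22160D at -0.77, BnaA05g35560D at -0.69 and BnaA06g30160D at -0.58.

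Levels of the members differed between replicate numbers. The replicate number was tested with the joint F test of edgeR's quasi-likelihood model. The rule averages over replicates and does not use their differences, but a mean of CPM can admit a gene through a single high replicate, so that the test is not fully independent of the choice of members. By this test 166 of 180 members were called, 92.2% beside 71.1% of all genes tested. The share was 89.6% in the next 200 ranks within the ratio limits and 87.1% in the 5288 most highly expressed genes. The median share of a member's sum of squares was 82.0% for the replicate number and 13.1% for the treatment, beside 68.8% and 13.6% over all genes tested. These shares were 79.5% and 14.8% in the next 200 ranks within the ratio limits, and 75.5% and 16.9% in the 5288 most highly expressed genes. The replicate number took the larger part in 154 of 180 members, in 154 of the 183 genes of the next 200 ranks and in 41228 of all 52881 genes tested, but in only 3 of the 20 genes above the ratio limit. The limit on the 60-min ratio held down the treatment part of the members, so that these shares are a description only.

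The range between the highest and the lowest replicate mean was a median of 0.83 on the log2 scale, beside 0.66 for all genes and 0.57 for the 5288 most highly expressed genes. In the next 200 ranks within the ratio limits it was 0.73. Among the members it went from 0.11 to 2.84, and in 70 (38.9%) it was over 1, as in 28.0% of all genes. The share over 1 was 34.4% in the next 200 ranks within the ratio limits and 20.3% in the 5288 most highly expressed genes. The widest range of a member was that of BnaA05g09340D on A05, which also had the largest F. It had 568, 1263 and 178 CPM after mock treatment, 524, 1316 and 169 at 15 min and 387, 978 and 147 at 60 min, a 7.17-fold span between replicates 2 and 3. BnaC05g33690D, on C05, had 527, 1330.2 and 252 CPM after mock treatment and a 5.09-fold span. BnaA05g20960D, on A05, had 1589, 2835 and 588 CPM and a 4.78-fold span. In these genes replicate 2 was highest and replicate 3 lowest in all 3 groups.

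BnaC03g11630D and BnaA03g09300D followed another order, with replicate 1 lowest. The first had 151, 1192 and 264 CPM after mock treatment and the second 129.5, 1037 and 212, with spans of 6.38-fold and 6.64-fold. BnaA03g09300D, the last member by rank, was above the level of rank 200 in replicate 2 and well under it in the other mock samples. The most even member was BnaA01g11840D on A01, with 921, 1089.7 and 975 CPM after mock treatment and a 1.08-fold span.

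Of the 180 members, 121 (67.2%) were highest in replicate 2, as were 34.5% of all genes, 56.2% of the 5288 most highly expressed genes and 69.4% of the genes of the next 200 ranks within the ratio limits. Of these 121, 74 were lowest in replicate 3 and 47 in replicate 1. Replicate 1 was highest in 44, of which 31 were lowest in replicate 3 and 13 in replicate 2. Replicate 3 was highest in 15. The members with the highest mock level in each pattern were BnaA10g17650D, BnaC03g37680D, BnaC06g02740D, BnaAnng07380D and BnaAnng22160D in that order, the last of them for replicate 3. The patterns use the mean log2 CPM of a replicate number, and the highest single sample of BnaAnng22160D was mock replicate 1. With total count alone 89 members were highest in replicate 2, 61 in replicate 1 and 30 in replicate 3.

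**Figure D5:**
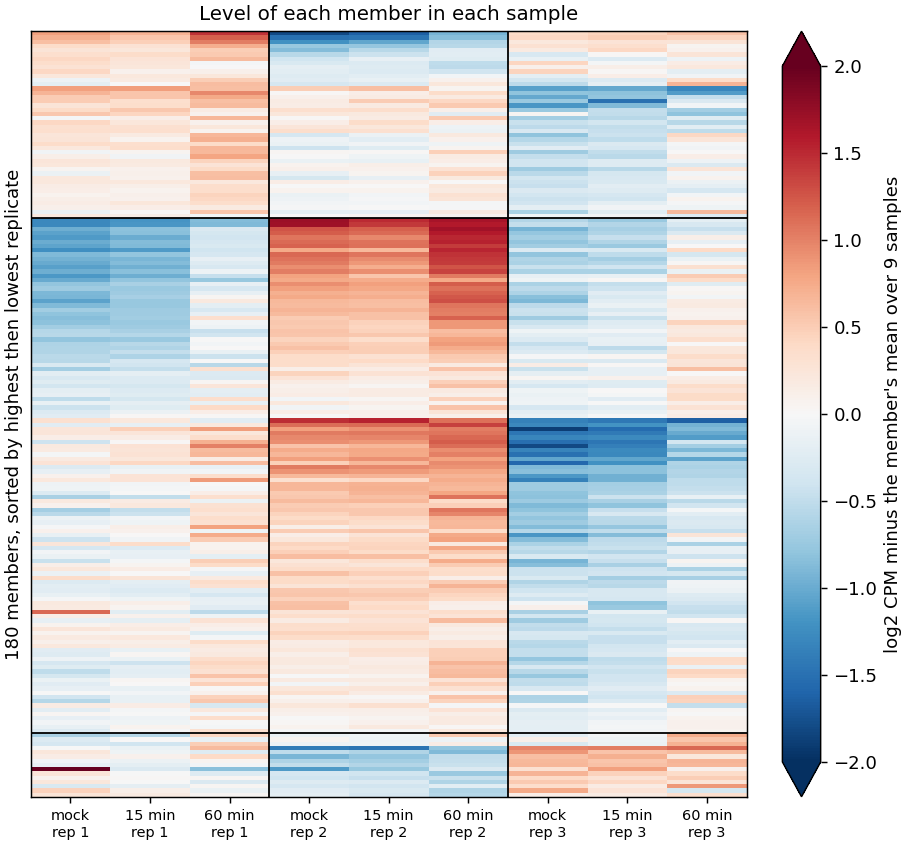
Log2 CPM of each of the 180 members minus its own mean over the 9 samples (colour, limited to -2 to 2), with samples in columns by replicate number and members in rows. The rows are sorted by highest and then lowest replicate, and the horizontal lines separate the 44 members highest in replicate 1, the 121 highest in replicate 2 and the 15 highest in replicate 3.

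A principal component analysis of the members is subject to the same limit on the treatment part. The first component held 67.2% of their variance, of which the replicate number took 92.3% and the treatment 6.78%. The second held 20.1%, nearly all of it (99.3%) by replicate number. The treatment came in the third, which held 9.35% of the variance and was 89.8% by treatment.

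Members were found in both subgenomes. The A subgenome carried 94 (52.2%, beside 47.7% of all genes tested) and the C subgenome 86 (47.8%, beside 52.0%). They lay on all 19 chromosomes with 4 to 15 members each, and 15 were unplaced. Between 60 and 15 min, edgeR's test called 53 of the 94 members of the A and 42 of the 86 of the C subgenome. Over all genes tested 23.7% were called. The median log2 fold changes of the A and C members were 0.30 and 0.24. The share called over all genes of each subgenome was not computed, so that no difference between the subgenomes is read from these values. The medians at 15 min against mock were both 0.04.

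For each member the gene with the most similar levels was sought, as Pearson's r of log2 CPM over the 9 samples. The samples share the replicate pools, so that r mostly follows the replicate number, and it is given as a description. The median r to the most similar member was 0.98. It was in the other subgenome for 109 members (60.6%), where 50.2% of the other members are. In 45 pairs each gene was the most similar to the other, and 25 of these joined the subgenomes, 8 of them on chromosomes of the same number. BnaA03g46490D and BnaC07g38760D had an r of 0.999, with 668, 1133 and 434 CPM in the first and 883, 1495 and 577 CPM in the second after mock treatment. BnaA03g09300D and BnaC03g11630D had an r of 0.998. Within the A subgenome, BnaA04g28570D and BnaA06g18100D had an r of 0.999, so that a high r does not mark partner copies. Reads that fit more than 1 place in the genome were discarded in counting, so that levels of near-identical copies are uncertain.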

How the data were processed

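Per the methods of the study, the authors used TopHat2 to map single-end reads on the Darmor genome and HTSeq to count them by gene, leaving out multi-mapped reads, and deposited the raw counts. Versions, strand setting and annotation release are not given in the sources used here. Counts of 9 samples were analysed with edgeR 4.0.16 under R 4.3.3. filterByExpr by treatment kept 52881 of 101040 genes, which held 99.96% to 99.97% of each library's counts, libraries were scaled by TMM, and ratios used a prior count of 2. The quasi-likelihood test had terms for treatment and replicate number, as in the study's methods, with 4 residual degrees of freedom and a threshold of 0.05 on the Benjamini-Hochberg adjusted p. Standard errors were obtained by dividing the size of a log2 fold change by the root of its F. Each replicate number is a separate pool of isolations split over the 3 treatments. Deviations from group means correlated from 0.715 to 0.851 across groups within a number and from -0.588 to -0.156 between numbers. No libraries of a group were near copies (chi-square per degree of freedom at least 137). The tests were tested on simulated data. DESeq2 1.42.0, other scalings, filters, rank limits and designs, and each replicate number left out were the alternatives. Members and lists were chosen with earlier results of these data known. The genes named were to be the first 20 members, the 5 highest and 5 lowest at 15 min, those nearest the ratio limits, the 5 with the largest replicate F and any the study names, and a few more were picked once values were known. Tests of gene lists and explanations were left out.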

Additional observations from a re-analysis of the deposited data

Results flagged for a closer look

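For 95 of the 180 members the change from mock at 60 min differed from that at 15 min, by the contrast of both exposures in edgeR's quasi-likelihood test with Benjamini-Hochberg adjustment over all genes. Of these, 88 were higher and 7 lower at 60 min, and 23.7% of all genes tested were called in the same contrast. The 60-min samples also entered the ratio limit that chose the members, and the split of directions became 41 and 50 with total count alone, where 43.1% of all genes tested were called.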

How the results depend on the processing

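None of the settings tried called a member at 15 min except a fit of the 15-min and mock samples alone. That fit called 2 members, beside 1.73% of all genes tested. Between 60 and 15 min the count of 95 became 0 with no replicate block and ranged from 12 to 103 when a replicate number was left out. It was between 81 and 108 under the other settings, DESeq2 included. The share of all genes tested was 0.46%, 6.88% to 20.5% and 16.3% to 43.1% in these fits. Between 60 min and mock the count of 108 became 0 with no replicate block and ranged from 42 to 112 without a replicate number. At an unadjusted p under 0.05 the fit with no replicate block gave 0, 11 and 17 members at 15 min, between 60 and 15 min and at 60 min. Of the 52881 genes tested, 365, 4453 and 5389 had such a p. The count by replicate number lay between 113 and 171 under all settings run, and the share of all genes tested between 45.1% and 80.0%. The log2 fold changes at 15 min of BnaAnng22160D and BnaC05g38940D turned to 0.45 and 0.25 without replicate 1 and were -1.41 and -0.77 without replicate 3. With the first 100 genes in place of 200 there were 93 members, with shares of 16.3%, 16.4% and 16.9% after mock treatment, at 15 and at 60 min. With the first 400 there were 363, with shares of 28.8%, 28.8% and 29.3%. Leaving out a replicate number gave between 172 and 185 members, and total count alone gave 195. With 3 samples a group, small changes of these genes can be missed at any depth.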

Other observations

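Of the genes that the study names, 1 was among the first 200 of the mock-treated samples. BnaA07g32420D, on chromosome A07 at rank 56, is named for ERD14, a dehydrin of Arabidopsis that accumulates in dehydrated cells. It had 1146 CPM, 1334 CPM and 997 CPM in mock replicates 1, 2 and 3, 1348 CPM, 1489 CPM and 1426 CPM at 15 min, and 3049 CPM, 2618 CPM and 3329 CPM at 60 min. It was above the upper limit of the ratio and is therefore not a member.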
